A study of Mus musculus with 14 samples.

Results

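The miR-106b-25 cluster is a set of 3 microRNA (miRNA) hairpins that lie together in an intron of Mcm7, and each hairpin can give a mature miRNA from its 5p arm and from its 3p arm. Its members were taken by name from the deposited count table. They were mmu-miR-106b-5p, mmu-miR-106b-3p, mmu-miR-93-5p, mmu-miR-93-3p, mmu-miR-25-3p and mmu-miR-25-5p, written below without the mouse prefix, and all 6 were among the 1695 mouse miRNA names of the table. The names were fixed by the cluster, although earlier results of these data were known when it was chosen.

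The libraries were made from RNA of small extracellular vesicles, which are membrane-bound particles shed by cells. Primary neutrophils had released them, per the labels, and these were Ly6G+ cells from bone marrow of WT BALB/c female mice. A commercial kit was used to collect the vesicles. One group of 7 libraries had cells treated for 48 h with DMSO, the solvent. The other group of 7 had cells treated for 48 h with 10 µM 27HC (27-hydroxycholesterol, an oxidised form of cholesterol). No genetic change was named in either group. The sources used here do not say how many mice or cultures a library represents, so p-values measure the spread between these libraries, which may be technical.

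A miRNA is cut from its hairpin as a short duplex. One strand is usually loaded into an Argonaute protein and guides it to messenger RNAs, mainly through pairing of the seed, which is bases 2 to 8 of the miRNA, while the other strand is mostly degraded. The hairpins of this cluster share a primary transcript with Mcm7, which encodes a subunit of the replicative helicase. The cluster is a paralogue of miR-17-92 and miR-106a-363, so its miRNAs share seeds with members of those clusters. It is known for promoting proliferation and survival, through targets such as the cell cycle inhibitor Cdkn1a and the death factor Bcl2l11. Within haematopoiesis it is expressed broadly, in dividing progenitors and in the erythroid lineage.

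In the RefSeq annotation of GRCm38.p6, the 3 hairpins lie on the minus strand within 498 bases. In the GENCODE annotation of GRCm38 they lie in the 748-base intron between exons 13 and 14 of a protein-coding Mcm7 transcript. Mir106b is at chr5:138165737-138165818, Mir93 at chr5:138165523-138165610 and Mir25 at chr5:138165321-138165404. Stretches of 126 and 118 bases separate them. Mir93 and Mir25 also overlap an exon of another Mcm7 transcript, which retains an intron. The submitters' processing notes name GRCm39, and the count table gives no coordinates, so those printed here describe the annotation only. The hairpins are printed 5′ to 3′ with both mature arms in capitals, since arm use is a main measurement here.
Mir106b: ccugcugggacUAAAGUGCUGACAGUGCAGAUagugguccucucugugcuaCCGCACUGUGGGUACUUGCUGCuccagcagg
Mir93: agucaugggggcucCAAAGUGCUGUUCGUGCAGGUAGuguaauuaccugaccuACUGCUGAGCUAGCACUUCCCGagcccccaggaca
Mir25: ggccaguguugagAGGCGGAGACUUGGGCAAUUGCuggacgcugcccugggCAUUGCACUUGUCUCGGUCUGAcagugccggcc

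The mature miRNAs follow with the seed in capitals, because the seed groups them into families. All 15 names looked up, the members and their seed mates, had a RefSeq entry. The first set holds miR-106b-5p and miR-93-5p with their main seed mates from the paralogous clusters, which share AAAGUGC.
miR-106b-5p: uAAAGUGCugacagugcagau
miR-93-5p: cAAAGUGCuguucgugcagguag
miR-17-5p: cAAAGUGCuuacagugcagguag
miR-20a-5p: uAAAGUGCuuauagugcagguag

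The next set holds miR-25-3p and the seed mates that were counted often enough to be tested, which share AUUGCAC.
miR-25-3p: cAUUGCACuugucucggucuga
miR-92a-3p: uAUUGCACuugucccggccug
miR-92b-3p: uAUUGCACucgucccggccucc
miR-32-5p: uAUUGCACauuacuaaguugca

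The remaining members are the opposite arms, and each has a seed of its own.
miR-106b-3p: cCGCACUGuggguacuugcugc
miR-93-3p: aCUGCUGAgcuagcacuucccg
miR-25-5p: aGGCGGAGacuugggcaauugc

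Compared base by base from the 5′ end, miR-93-5p matched miR-106b-5p at 16 of 21 positions, although both come from this cluster. It matched miR-17-5p and miR-20a-5p at 19 of 23. miR-25-3p matched miR-92a-3p at 18 of 21 positions, with a longest shared run of 12 bases, and miR-32-5p at 13 of 22. How reads that match more than 1 name were counted is not given in the sources used here.

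Library totals ran from 112914 to 871189 counts. Replicates 1 to 4 held 229324 to 871189 counts and replicates 5 to 7 held 112914 to 252014, in both groups together. The labels do not say what separates these sets of replicates, and values within them are given where a result depends on them. Levels are counts per 1000000 counts (CPM) scaled by TMM, and a fold change compares 27HC with DMSO by edgeR's quasi-likelihood test over 239 tested names. A call is a Benjamini-Hochberg adjusted p under 0.05. The neutrophil-typical miR-223-3p and miR-223-5p summed to at least 75831 CPM in every library.

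The cluster was abundant in vesicles of both groups. Its 6 names took from 5.97% to 8.43% of the counts of a DMSO library, with a median of 6.90%, and from 6.06% to 7.51% of a 27HC library, with a median of 6.48%. Its products were very uneven. Over all 14 libraries, miR-25-3p held 54.3% of the cluster's counts and miR-93-5p 44.2%. miR-106b-3p held 1.24%, miR-93-3p 0.124%, miR-106b-5p 0.0418% and miR-25-5p 0.0183%. Ranked by mean share of a library among the 1695 names, miR-25-3p was the 4th and miR-93-5p the 5th, while miR-106b-3p was 73rd, miR-93-3p 193rd, miR-106b-5p 296th and miR-25-5p 388th. Ligation and amplification favour some sequences over others, so counts of different names are not molar amounts.

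**Figure D1:**
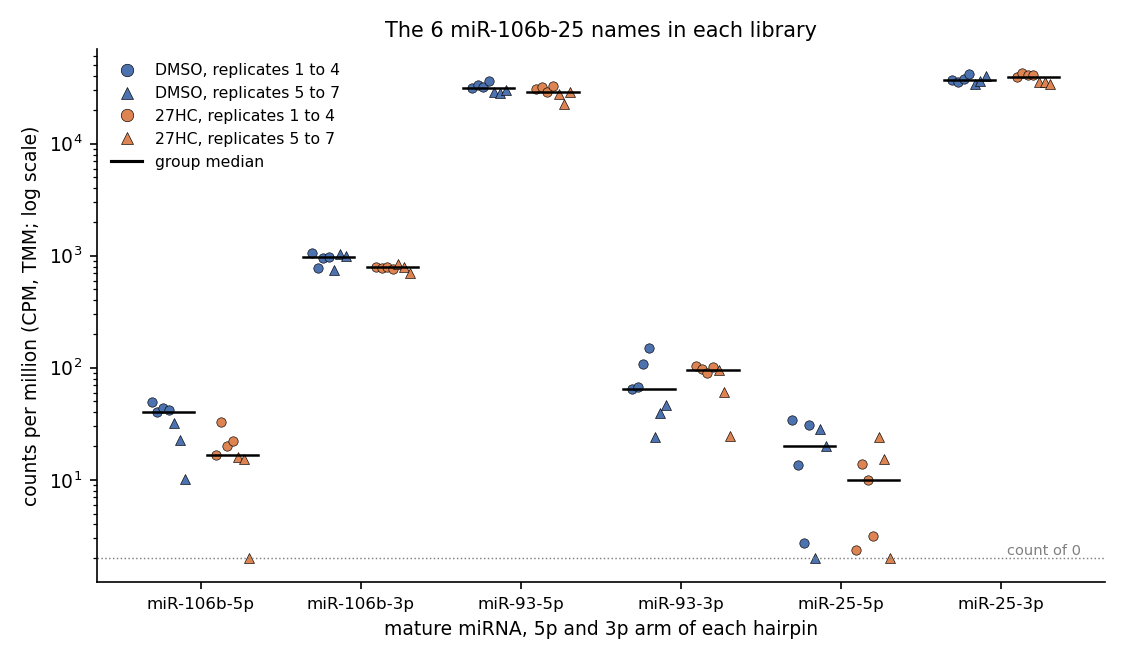
CPM (TMM, log scale) of the 6 members in each of the 14 libraries, with circles for replicates 1 to 4, triangles for replicates 5 to 7, lines for group medians and counts of 0 drawn on the dotted line. miR-25-3p and miR-93-5p are at 22514 CPM or above in every library and the other 4 names lie far below them, and no member separates the groups.

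miR-25-3p, the guide strand of Mir25, was at 34023 CPM in the lowest DMSO library, 36637 in the median one and 41949 in the highest. In 27HC libraries it was at 34155, 39244 and 42290 CPM. The ranges coincide almost entirely, and only 27HC replicate 2 exceeded the highest DMSO library. The fit put the log2 fold change at 0.035 (SE 0.081, n = 7 per group), and edgeR gave an adjusted p of 0.869. With replicates 1 to 4 alone the log2 fold change was 0.17, and with replicates 5 to 7 alone it was −0.058. The difference between the sets had an unadjusted edgeR p of 0.199.

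miR-93-5p, the guide strand of Mir93, was at 28164, 31431 and 36472 CPM in the lowest, median and highest DMSO library. The 27HC libraries had 22514, 29114 and 32798 CPM. 2 of the 7 27HC libraries were below the lowest DMSO library, and the others overlapped. The log2 fold change was −0.11 (SE 0.094, n = 7 per group), with an edgeR adjusted p of 0.536. Without 27HC replicate 6 it was −0.0027, and without DMSO replicate 6 it was −0.16. Its level was lower in replicates 5 to 7 than in replicates 1 to 4 of both groups, with means of 29003 against 33409 CPM for DMSO and 26388 against 31146 CPM for 27HC.

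miR-106b-3p, the abundant strand of Mir106b, was at 745.7, 974.5 and 1062 CPM in the lowest, median and highest DMSO library. With 27HC it was at 697, 785 and 842 CPM. DMSO libraries fell into 5 at 948.8 CPM or above and 2 within the 27HC range, replicates 2 and 5. The spread was smaller with 27HC, with an SD of 43.2 CPM against 124. The log2 fold change was −0.26 (SE 0.11, n = 7 per group), with an unadjusted edgeR p of 0.0237 and an adjusted p of 0.126. It was called in 1 alternative, upper quartile scaling, with a log2 fold change of −0.35 and an edgeR adjusted p of 0.0339. That scaling moved the median of all tested names from 0.010 to −0.081. In bulk libraries, fewer vesicles from one kind of cell and less RNA per vesicle cannot be told apart.

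miR-93-3p, the minor strand of Mir93, was at 24.1, 64.5 and 150 CPM in the lowest, median and highest DMSO library. In 27HC libraries it was at 24.6, 96.2 and 104 CPM. The lowest values of both groups lay in replicates 5 to 7, the shallower set, where DMSO averaged 36.9 CPM against 97.5 in replicates 1 to 4. The log2 fold change was 0.17 (SE 0.36, n = 7 per group), with an edgeR adjusted p of 0.857. It was 0.054 without DMSO replicate 6 and 0.52 without DMSO replicate 4.

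miR-106b-5p and miR-25-5p had too few counts to be tested. miR-106b-5p, which carries the AAAGUGC seed, had 3 to 32 counts in a DMSO library and 0 to 7 in a 27HC library, and 83 against 29 counts in all. That corresponded to 10.1, 40.3 and 49.3 CPM in the lowest, median and highest DMSO library, and to 0, 16.6 and 32.5 CPM with 27HC. The count of 0 was in 27HC replicate 7, where 3 counts, the limit that a count of 0 allows, correspond to 24.6 CPM. DMSO replicates 5 to 7 were inside the 27HC range and the other 4 DMSO libraries were at 40.3 CPM or above. Fitted with no filter on low counts, it had a log2 fold change of −1.03 (SE 0.54), an unadjusted edgeR p of 0.0550 and an adjusted p of 0.434. In replicates 1 to 4 alone, where it passed the filter, the log2 fold change was −0.90 and the edgeR adjusted p 0.0825. miR-25-5p, the minor strand of Mir25, had 0 to 11 counts in a DMSO library and 0 to 3 with 27HC, 37 against 12 in all. Intervals and limits of this kind cover counting error only.

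Of the 4 members tested, 0 were called by edgeR, beside 12.6% of all 239 tested names (3.77% higher and 8.79% lower with 27HC). At an unadjusted p under 0.05 there was 1, miR-106b-3p, beside 22.2% of the tested names. DESeq2 called 0 of 6 and limma-voom 0 of 4. No member separated the groups without overlap, which 5.44% of tested names did. The median log2 fold change of the 4 was −0.040, against 0.010 for all tested names. In the test of whether the 27HC effect differed between replicates 1 to 4 and 5 to 7, edgeR called 0 of these 4 and 0 of all 239 names (0%). At an unadjusted p under 0.05 that test gave 0 of the 4 and 24 of all (10%), and the members' p-values ran from 0.199 to 0.950.

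Arm use differed between the hairpins. Mir25 and Mir106b were counted mainly from the 3p arm and Mir93 from the 5p arm. Over all libraries the major arm held 99.97% of the counts of Mir25, 99.7% of Mir93 and 96.7% of Mir106b. The table held 169 hairpin names with both arms and at least 100 counts, 86 of them with more counts from the 5p arm and 83 with more from the 3p arm. Their median major arm share was 97.5%, and 63 were over 99%. In that order Mir25 was the 3rd most one-sided, Mir93 the 30th and Mir106b the 94th. Among the paralogues, the hairpin of miR-20a was the 8th, and that of miR-17 the 148th, with 76.1% of its counts from the 5p arm.

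**Figure D2:**
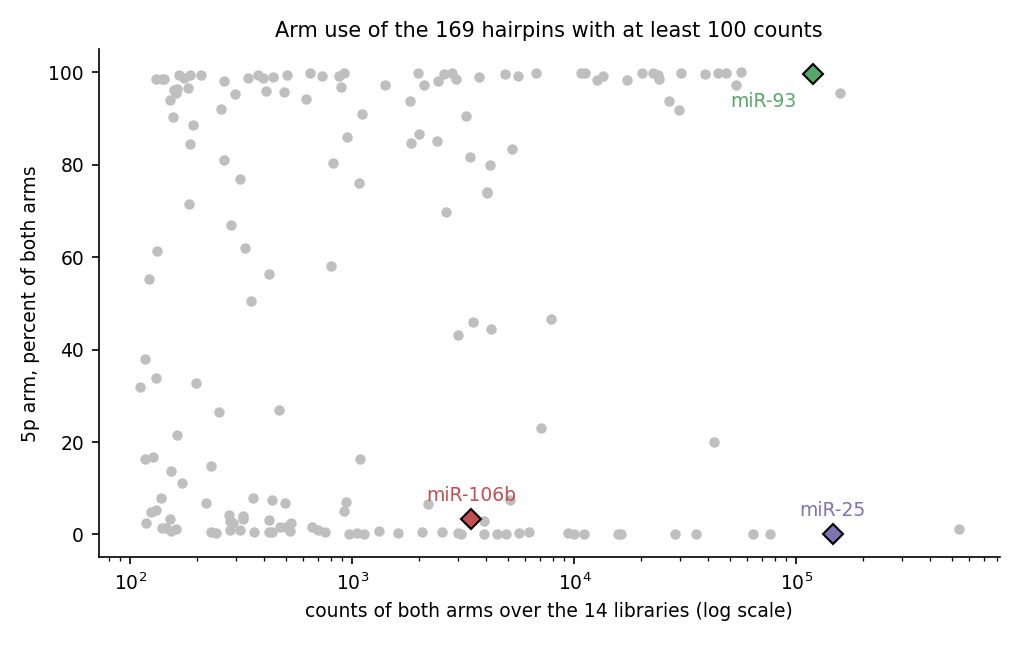
Share of the 5p arm in percent (vertical) against the counts of both arms over the 14 libraries (horizontal, log scale), for 169 hairpin names with at least 100 counts, with the members of the cluster as diamonds. miR-93 lies at the 5p end, and miR-25 and miR-106b lie at the 3p end, with miR-106b the least one-sided of the 3 at 3.26% from the 5p arm.

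For Mir106b the 5p arm, which holds the seed shared with miR-93-5p, was the minor one. Its share was 1.01%, 4.12% and 4.96% in the lowest, median and highest DMSO library. With 27HC the share was 0%, 2.06% and 4.02%. The 0 came from 85 counts of both arms in 27HC replicate 7, which allows a share of up to 3.53%. The log2 ratio of 5p to 3p counts, with 0.5 added to each, was −4.80 ± 0.796 for DMSO and −5.47 ± 0.922 for 27HC (SD, n = 7). The difference of −0.67 (SE 0.46) gave an exact two-sided permutation p of 0.193, or 0.499 adjusted over the 48 hairpins whose arms both averaged at least 5 counts. It was −0.34 without 27HC replicate 7 and −0.93 without DMSO replicate 7, where the exact permutation p was 0.0163 (adjusted 0.122).

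For Mir93 the 3p arm took 0.0830%, 0.201% and 0.411% of the counts in the lowest, median and highest DMSO library. In 27HC libraries it took 0.0853%, 0.307% and 0.345%. The log2 ratio of 5p to 3p counts was 8.94 ± 0.709 for DMSO and 8.52 ± 0.648 for 27HC (SD, n = 7), and the difference of −0.42 (SE 0.36) gave an exact permutation p of 0.270 (adjusted 0.505). The value was −0.24 without DMSO replicate 5 and −0.66 without 27HC replicate 7, where the exact permutation p was 0.0455 (adjusted 0.198). Replicates 1 to 4 gave −0.20 and replicates 5 to 7 gave −0.71. Of the 48 hairpins, 3 were called (6.25%) and neither Mir106b nor Mir93 was among them. Their arms overlapped between the groups, as did those of all but 4.17% of these hairpins. For Mir25 the 5p arm took at most 0.0931% in any library, and its counts were below the minimum for this test.

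The stoichiometry of the cluster was measured as ratios of counts within a library, which need no scaling between libraries. 9 ratios among the guide strands and their seed mates were tested by exact permutation, with 3432 ways to assign the group labels and a smallest possible p of 0.000583. Each exact two-sided permutation p is followed by the value adjusted over all 47895 pairs of the 310 names that averaged at least 5 counts. Of all these pairs 7% were called, 19.9% had an unadjusted p under 0.05 and 3.84% did not overlap between the groups. The ratios share names and are not independent of each other.

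The ratio of miR-25-3p to miR-93-5p was narrow. It was 1.07, 1.17 and 1.35 in the lowest, median and highest DMSO library, and 1.18, 1.29 and 1.58 with 27HC. The ranges overlapped, although 2 of 7 27HC libraries were above all DMSO libraries. The log2 difference of 0.15 (SE 0.067, n = 7 per group) was not called, at an exact permutation p of 0.0355 (adjusted 0.206). Replicates 1 to 4 alone gave 0.21 (exact p 0.0286, the smallest possible with 4 against 4), and replicates 5 to 7 alone gave 0.079 (exact p 0.7). Without DMSO replicate 7 the difference was 0.18. Within groups the log2 ratio had an SD of 0.125, the 9th smallest of the 561 pairs formed by the 34 names that averaged at least 1000 counts. The median SD of those pairs was 0.320 and they ranged from 0.0116 to 1.05. A pair from separate transcripts, miR-93-5p and miR-20a-5p, had an SD of 0.122 and the 7th place.

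The guide strands were far more frequent than either arm of Mir106b. miR-25-3p was counted 34.5, 40.7 and 46.0 times as often as miR-106b-3p in the lowest, median and highest DMSO library, and 42.5, 49.97 and 54.6 times with 27HC. miR-93-5p was counted 27.2, 34.1 and 43.2 times as often as miR-106b-3p with DMSO and 28.6, 38.8 and 42.9 times with 27HC. These ratios to miR-106b-3p were not among the 9, and no p is given for them. Against miR-106b-5p, its seed mate in the same transcript, miR-93-5p was 637 to 2971 times as frequent in DMSO libraries, with a median of 873. In the 6 27HC libraries with a count above 0 it was 993 to 1839 times as frequent. The log2 difference of 0.80 (SE 0.45) gave an exact permutation p of 0.0822 (adjusted 0.329). For miR-25-3p over miR-106b-5p the log2 difference was 0.95 (SE 0.45), with an exact permutation p of 0.0455 (adjusted 0.237). Without DMSO replicate 7 these differences were 1.04 and 1.22, and without 27HC replicate 7 they were 0.45 and 0.63. All 4 ratios that contain miR-106b-5p rest on its few counts.

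Within the AAAGUGC seed family, miR-93-5p held most of the counts and miR-20a-5p, from miR-17-92, most of the rest. Over all libraries, miR-93-5p held 84.8% of the family's counts, miR-20a-5p 14.4%, miR-17-5p 0.582% and miR-106b-5p 0.0802%. miR-93-5p was counted 5.97, 6.16 and 6.69 times as often as miR-20a-5p in the lowest, median and highest DMSO library. With 27HC the ratio was 4.71, 5.42 and 6.56, and 6 of 7 27HC libraries lay below the lowest DMSO library. 27HC replicate 2 was the exception. The log2 difference of −0.19 (SE 0.065, n = 7 per group) was not called, at an exact permutation p of 0.0163 (adjusted 0.131). Replicates 1 to 4 gave −0.13 and replicates 5 to 7 gave −0.26. Without 27HC replicate 2 the difference was −0.24, and without DMSO replicate 7 it was −0.19.

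miR-17-5p was much rarer than miR-20a-5p from the same transcript, which was counted 19.4 to 32.1 times as often over all libraries. The log2 difference of miR-93-5p over miR-17-5p was −0.12 (SE 0.14), with an exact permutation p of 0.397 (adjusted 0.716). For miR-106b-5p over miR-17-5p it was −0.92 (SE 0.49, exact permutation p 0.0653, adjusted 0.290), and over miR-20a-5p it was −0.99 (SE 0.47, exact permutation p 0.0390, adjusted 0.218). Without DMSO replicate 7 these values were −1.14 and −1.23, and without 27HC replicate 7 they were −0.55 and −0.63. Of the 6 names with this seed, 3 were tested one by one in edgeR and 0 were called there, with a median log2 fold change of 0.0005. DESeq2 and limma-voom also called 0 of these 3, and 0 had an unadjusted edgeR p under 0.05.

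Within the AUUGCAC seed family, miR-25-3p and miR-92a-3p did not keep their proportion. miR-25-3p was counted 12.95, 15.4 and 19.1 times as often as miR-92a-3p in the lowest, median and highest DMSO library. With 27HC the ratio was 8.28, 9.87 and 10.5, and all 7 27HC libraries lay below the lowest DMSO library. The log2 ratio fell by 0.68 (SE 0.092, n = 7 per group), with an exact permutation p of 0.000583, the smallest possible, and an adjusted value of 0.0152. Of the 309 ratios of miR-25-3p to another name, 19 were called (6.15%) and 13 did not overlap (4.21%). Replicates 1 to 4 alone gave −0.79 and replicates 5 to 7 gave −0.54. Separation within each set follows from the separation of all libraries. The exact permutation p-values within the sets, 0.0286 and 0.1, therefore had to be the smallest possible there.

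**Figure D3:**
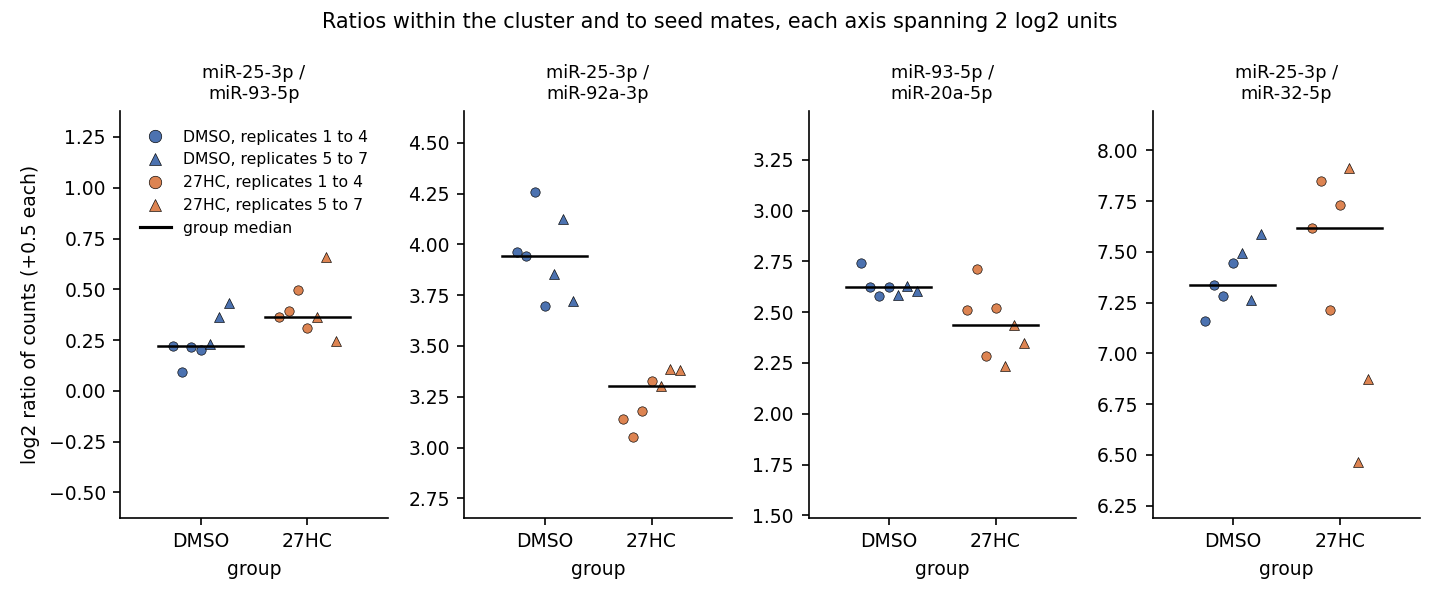
Log2 ratio of counts, with 0.5 added to each, in every library for 4 pairs of names, each axis spanning 2 log2 units, with lines for group medians. The groups separate for miR-25-3p over miR-92a-3p, where 27HC is lower, and overlap for the other 3 pairs.

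The change in this ratio came with a higher level of miR-92a-3p. miR-92a-3p was at 1959, 2345 and 3238 CPM in the lowest, median and highest DMSO library and at 3272, 4037 and 5107 CPM with 27HC, without overlap. It rose by 0.71 on the log2 scale (SE 0.13, n = 7 per group), with an edgeR adjusted p of 0.00123. In replicates 1 to 4 the log2 fold change was 0.95 (edgeR adjusted p 0.00116). In replicates 5 to 7 it was 0.47 (edgeR adjusted p 0.139), so the call was not made there. The difference between the sets had an edgeR p of 0.0844 (adjusted 0.485). The call was also not made with no filter on low counts, at 0.65 (edgeR adjusted p 0.0998). miR-25-3p held 92.1% to 94.3% of the counts of this seed family in DMSO libraries and 88.6% to 90.4% with 27HC, while miR-92a-3p held 4.93% to 7.11% and 8.61% to 10.7%.

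The other seed mates of miR-25-3p were rarer. miR-32-5p, which comes from a hairpin of its own, had a ratio of miR-25-3p counts to its own of 144 to 194 with DMSO and of 89.3 to 248 with 27HC. The log2 difference of 0.013 (SE 0.21) had an exact permutation p of 0.953 (adjusted 0.987). The sign turned, to −0.36, with replicates 5 to 7 alone. miR-92b-3p had a log2 fold change of 0.49 (SE 0.27) and an edgeR adjusted p of 0.322. It was at 0.91 in replicates 1 to 4 alone and at −0.044 in replicates 5 to 7 alone, and the difference between the sets had an unadjusted edgeR p of 0.118. Of the 6 names with this seed, 4 were tested and 1 was higher, miR-92a-3p, beside 3.77% of all tested names. The median log2 fold change of the 4 was 0.28, against 0.010 for all tested names.

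Of 22 names listed for the paralogous clusters miR-17-92 and miR-106a-363, 21 were in the table and 7, all encoded in miR-17-92, were tested. Only miR-92a-3p was called among them, 1 of 7 beside 12.6% of all tested names, and the median log2 fold change was 0.0005. miR-19a-3p and miR-19b-3p, which carry another seed of that cluster, had log2 fold changes of −0.24 (SE 0.15) and −0.27 (SE 0.15). miR-18a-5p was at 0.17 (SE 0.35), miR-17-3p at −0.19 (SE 0.32), miR-17-5p at 0.0005 (SE 0.16) and miR-20a-5p at 0.075 (SE 0.093). miR-92a-3p and miR-19b-3p are also encoded in miR-106a-363, so their counts cannot be assigned to one of the clusters. Of the guide strands found in that cluster alone, miR-20b-5p had 137 counts over all libraries, miR-363-3p 64 and miR-106a-5p 16, and none of these 3 was tested.

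**Figure D4:**
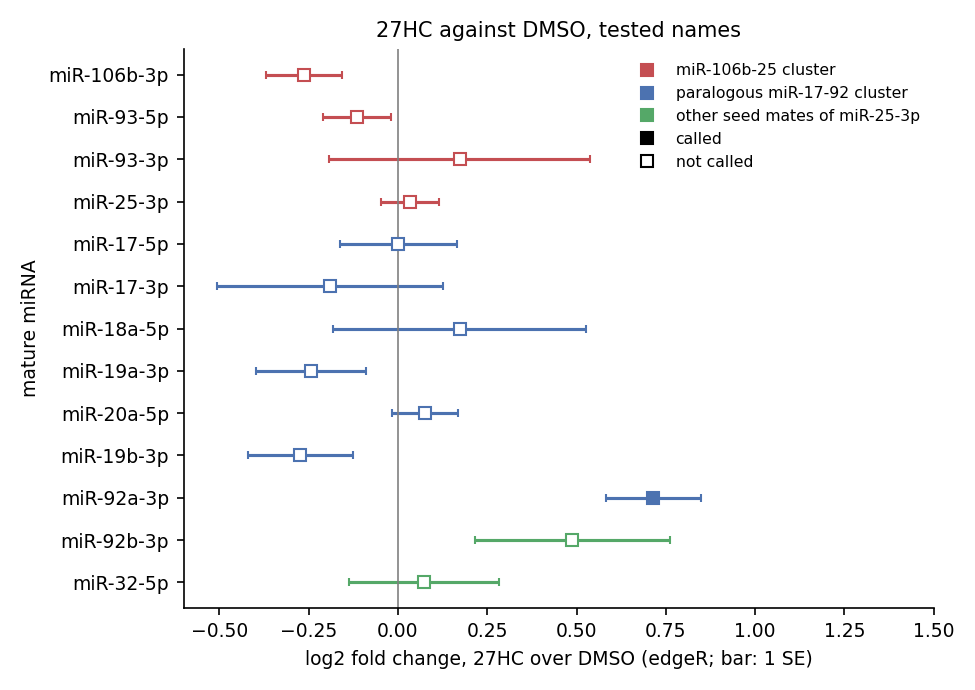
Log2 fold change of 27HC over DMSO from edgeR (horizontal, with bars of 1 SE, n = 7 per group) for the tested names of the cluster, of miR-17-92 and of the other seed mates of miR-25-3p. miR-92a-3p, at 0.71, is the only filled symbol, meaning an adjusted p under 0.05, and the 4 members of the cluster lie between −0.26 and 0.17.

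Markers of the erythroid lineage, in which this cluster is also expressed, were counted in the same libraries. Of 7 erythroid names, 4 were tested, all from miR-486a and miR-486b, and 0 were called by edgeR, also at an unadjusted p under 0.05. The 5p names of this pair have identical counts and the 3p names nearly so, so these are in effect 1 5p and 1 3p product. Their log2 fold changes were 0.34 (SE 0.16) and 0.20 (SE 0.20) under the miR-486a names. For miR-486a-5p the unadjusted p was 0.0559 by edgeR and 0.0364 by limma-voom (adjusted 0.231 and 0.161). It was at 0.31 in replicates 1 to 4 alone and at 0.54 in replicates 5 to 7 alone, and was called in neither. The summed level of the list, with the miR-486b names left out because miR-486b-5p repeats the counts of miR-486a-5p, was 674, 962 and 1374 CPM in the lowest, median and highest DMSO library. In 27HC libraries it was 962, 1356 and 1464 CPM. miR-451a and miR-144-3p, which define the list, had too few counts to be tested, at 2 to 26 and 2 to 25, and were at 0 in no library. Their medians were 30.3 and 26.9 CPM with DMSO and 41.0 and 41.1 CPM with 27HC. Above the highest DMSO library were 5 of 7 27HC libraries for miR-451a, with 1 below the lowest, and 3 for miR-144-3p. The median of miR-144-5p went the other way, from 16.8 CPM with DMSO to 8.20 CPM with 27HC. miR-144-5p was at 0 in at least 1 27HC library.

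Names that mark other or broader groups of blood cells were called in the same fit. miR-142a-3p and miR-142a-5p, found in all haematopoietic cells, neutrophils included, were both lower with 27HC, 2 of 2 beside 8.79% of all tested names. Their log2 fold changes were −1.53 (SE 0.20, edgeR adjusted p 3.55e-05) and −0.74 (SE 0.20, edgeR adjusted p 0.0223). Their summed level was 7460, 11519 and 22800 CPM in the lowest, median and highest DMSO library and 4151, 5435 and 6058 CPM with 27HC, without overlap. In replicates 5 to 7 alone miR-142a-5p was at −0.11 and was not called (edgeR adjusted p 0.840), and the difference between the sets had an edgeR p of 0.00204 (adjusted 0.122). With all libraries, limma-voom called miR-142a-3p but not miR-142a-5p, which was at −0.67 (limma-voom adjusted p 0.0549). miR-150-5p, which marks mature lymphocytes, was also lower. It fell by 0.97 on the log2 scale (SE 0.24), and edgeR gave an adjusted p of 0.0134. It was at 141, 228 and 376 CPM with DMSO and at 73.8, 128.3 and 172 CPM with 27HC, and the groups overlapped. It was not called in replicates 5 to 7 alone, at −0.70 (edgeR adjusted p 0.425), and the difference between the sets had an unadjusted edgeR p of 0.351. By edgeR, 0 of 2 myeloid names, 0 of 1 liver name and 0 of 3 tested endothelial and stromal names were called, also at an unadjusted p under 0.05. DESeq2 and limma-voom called none of these or of the erythroid names either. The part of any of these cells in the rise of miR-92a-3p and in the lower ratio was not tested.

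The profiles of miR-25-3p, miR-93-5p and both arms of Mir106b across libraries were compared with all other tested names. The measure was Pearson's r of log2 CPM over the 14 libraries after subtracting group means. These values are a description, since all names share library depth, scaling and the 2 sets of replicates. miR-25-3p was nearest to miR-423-3p (r = 0.923), miR-484 (0.887), miR-128-3p (0.868), miR-92a-3p (0.836) and let-7d-3p (0.756). Of the other tested members, from the same transcript, miR-93-3p took the 12th place of 238 with 0.692. miR-93-5p took the 17th with 0.616 and miR-106b-3p the 51st with 0.402. After the means of the replicate sets were also subtracted, r was 0.685 with miR-93-3p, 0.28 with miR-93-5p and 0.547 with miR-106b-3p. With miR-92a-3p it was 0.76.

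miR-93-5p was nearest to miR-503-5p (r = 0.856), miR-674-3p (0.843), miR-19a-3p (0.821), miR-30d-5p (0.806) and miR-19b-3p (0.765), and miR-25-3p took the 24th place. miR-106b-3p had r = 0.40 with miR-25-3p and −0.060 with miR-93-5p, the 150th place of 238. For miR-106b-5p the nearest were miR-150-5p (0.838), miR-7667-5p (0.828), miR-3473b (0.774), miR-3473e (0.769) and miR-365-3p (0.746), but its counts of at most 32 make this order weak. None of miR-25-3p, miR-93-5p and miR-106b-5p had another member among its nearest 5 names. The nearest member for miR-106b-5p was miR-93-3p, in the 6th place with 0.689. After the means of the replicate sets were also subtracted, that value was 0.37, r of miR-93-5p with miR-30d-5p was 0.39, and the other 4 nearest names of miR-93-5p were at 0.61 to 0.81.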

How the data were processed

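The authors deposited raw counts per mature miRNA and library, whole numbers for 1695 names in 14 libraries. Per the labels' protocols, the kits were miRNeasy Micro for RNA and QIAseq miRNA for libraries. The aligner, the counting rule and whether reads or molecular identifiers were counted are not given in the sources used here. The submitters' processing notes name GRCm39 (mm39), R 4.1.2, edgeR and limma. All columns and libraries matched a label. The 42 pairs of libraries within a group all differed beyond sampling noise (lowest chi-square per degree of freedom 6.19).

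Counts were tested with edgeR 4.0.16 in R 4.3.3 (quasi-likelihood test, treatment as the only term, TMM, filterByExpr with a minimum count of 10), with Benjamini-Hochberg adjustment over all 239 tested names. CPM in correlations had a prior count of 2. Tested on simulated counts for this comparison, 23 of the 25 changed names among 237 tested were called and 0 unchanged ones. How often changes as small as those fitted for the members of the cluster are called was not tested. Ratios and arm ratios were log2 ratios of counts with 0.5 added, compared by exact two-sided permutation tests (scipy 1.17.1). The adjustment over all pairs of names was chosen after seeing the data. The 9 ratios were first adjusted among themselves, which called the same 1 ratio. Sequences and positions are from RefSeq (GRCm38.p6).

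Alternatives covered scaling, filter, tool (DESeq2 1.42.0, limma 3.58.1), pseudocount, replicate block, replicate sets 1 to 4 and 5 to 7, and each library left out. The members and lists were chosen with earlier results of these data known. Named are all members, tested seed mates and paralogues, and the 5 nearest names of miR-106b-5p, miR-93-5p and miR-25-3p. The values for miR-106b-3p and miR-93-3p in that comparison were chosen after they were seen.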

Additional observations from a re-analysis of the deposited data

Results flagged for a closer look

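In 56 groups of 7 libraries, 7 values stood apart from the other 6 of their group by Dixon's criterion, where chance gives about 2.8 (1 in 20 groups). 5 of them involve miR-106b-5p, which had 3 counts in DMSO replicate 7 and 0 in 27HC replicate 7. The log2 ratio of miR-25-3p to miR-106b-5p was 13.02 in 27HC replicate 7, with the next library at 11.1. For miR-93-5p over miR-106b-5p it was 12.8 in 27HC replicate 7 (next 10.7) and 11.3 in DMSO replicate 7 (next 10.1). For miR-106b-5p over miR-17-5p it was −3.96 in DMSO replicate 7 (next −2.71), and over miR-20a-5p it was −10.4 in 27HC replicate 7 (next −8.24). The log2 ratio of miR-93-5p to miR-20a-5p was 2.74 in DMSO replicate 1, with the next library at 2.63. miR-93-3p took 0.0853% of both arms in 27HC replicate 7, with the next library at 0.271%.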

How the results depend on the processing

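The fall of miR-25-3p over miR-92a-3p kept its direction in all 21 alternatives. The groups did not overlap, so no choice of libraries could turn the sign, and permuting labels or adjusting p-values left it unchanged. The count of 21 is therefore no evidence of stability. When each library was left out, the log2 difference of this fall ran from −0.73 to −0.63. Adjusted over the 9 ratios it missed the threshold within replicates 1 to 4 (−0.79) and within replicates 5 to 7 (−0.54), where fewer libraries limit the smallest p. No other ratio was called with all libraries when group labels were permuted, freely or within replicate sets. With the replicate block (sign flips within replicate numbers) 5 more were: miR-25-3p and miR-93-5p over miR-106b-5p (0.95 and 0.80), miR-93-5p over miR-20a-5p (−0.19), and miR-106b-5p over miR-17-5p (−0.92) and miR-20a-5p (−0.99). Replicate numbers were not taken to pair the libraries, since the labels give no shared source and r of same-numbered libraries was over 0.1 in 6 of 7 pairs, from 0.0686 to 0.600. 6 of 14 libraries were nearest to their own number. Only group means had been subtracted, and same-numbered libraries also share their replicate set, so these values cannot tell number from set.

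With each library left out, the log2 differences ran from 0.11 to 0.18 for miR-25-3p over miR-93-5p, 0.63 to 1.22 and 0.45 to 1.04 for miR-25-3p and miR-93-5p over miR-106b-5p, −0.075 to 0.17 for miR-25-3p over miR-32-5p, −0.22 to −0.053 for miR-93-5p over miR-17-5p, −0.24 to −0.16 for miR-93-5p over miR-20a-5p, and −1.16 to −0.55 and −1.23 to −0.63 for miR-106b-5p over miR-17-5p and miR-20a-5p. Without DMSO replicate 7 all of these passed the threshold over the 9 ratios, except miR-25-3p over miR-32-5p and miR-93-5p over miR-17-5p. Without 27HC replicate 2 miR-93-5p over miR-20a-5p and the ratios of miR-106b-5p to miR-25-3p, miR-17-5p and miR-20a-5p did. The cause was not tested. Reversed were miR-25-3p over miR-32-5p (−0.36, replicates 5 to 7) and miR-93-5p over miR-17-5p (0.025, replicates 1 to 4).

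Names called numbered 21 to 34 with a library left out and 12 of 198 tested in replicates 5 to 7, against 30. Calls for a difference between the sets of replicates numbered 0 to 3 with a library left out, above 0 without DMSO replicate 1 or DMSO replicate 4. Arm calls numbered 3 to 5 with a library left out (5 without DMSO replicate 7), 7 when permuted within sets, and 0 with the replicate block, in replicates 1 to 4 and in replicates 5 to 7. Those 0 came with 10, 10 and 0 at an unadjusted p under 0.05. The smallest possible exact p is 0.0156 with sign flips over 7 replicate numbers, 0.0286 with 4 against 4 and 0.1 with 3 against 3. With the replicate block Mir106b was at that smallest sign-flip p with an adjusted p of 0.0938, so even the smallest p gave no call. With a library left out, miR-25-3p was at 0.0053 to 0.12 and miR-106b-3p at −0.32 to −0.17, and neither was called. With the replicate block, 37 names were called by edgeR and no member's call changed.

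Some fold changes that were not called turned sign. miR-25-3p was at −0.052 under upper quartile scaling, −0.047 with no filter and −0.058 in replicates 5 to 7. miR-17-5p was at −0.013 (total counts), −0.074 (upper quartile), −0.097 (no filter), −0.0014 (limma-voom), −0.0062 (replicate block) and −0.035 (replicates 1 to 4), and at −0.072 to 0.11 with a library left out. miR-20a-5p was at −0.010 (upper quartile) and −0.021 (no filter), miR-18a-5p at −0.29 and miR-32-5p at −0.11 (replicates 1 to 4), miR-32-5p at −0.049 (no filter), −0.052 (limma-voom) and −0.030 to 0.22 with a library left out, and miR-92b-3p at −0.044 (replicates 5 to 7). No filter moved the median of all names to −0.19. The share of calls that were higher was 30% in the reported fit, 18.9% with upper quartile scaling and 45.5% with a mean count of at least 100. Counts of miR-106b-5p and miR-25-5p limit what can be said of them.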
